A study of Arabidopsis thaliana with 36 samples.

Results

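The ATH1 array carries 126 probe sets for transcripts that are made inside the plastid and the mitochondrion of Arabidopsis, and they stand together in 1 block of consecutive probe set numbers. Every probe set of this block was taken, out of 22810 on the array, whatever its signal, and 22746 probe sets without the array's controls entered the tests. Of the 126, 76 are plastid transcripts and 50 are mitochondrial transcripts. They were measured in spaceflight plants (FLT) and ground control plants (GC), on 5 arrays of leaves, 5 of hypocotyls and 5 of roots per environment and on 3 arrays of whole plants per environment, 36 arrays in all.

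All plants, flight and ground control alike, came from the reporter lines Adh::GFP, DR5::GFP and UB::GFP, which drive GFP from an alcohol dehydrogenase promoter, an auxin response element and a constitutive viral promoter. Flight plants grew from dormant seed for 12 days on vertical plates of solid medium on the International Space Station, in the Advanced Biological Research System chamber, and were fixed in RNAlater on orbit. Ground control plants grew in the same type of chamber inside a simulator programmed with the station's temperature and CO2, started with a delay, and were handled likewise. Plates 2, 4 and 6 of the upper tier were used. For each organ and environment 1 array came from plate 2, 2 from plate 4 and 2 from plate 6, and each held RNA of several plants, a mixture of the cultivars WS and Col-0. Whole plant arrays, 1 per plate, held WS only. The labels call the leaf samples shoots, and the study cut them as leaves. A flight plate and a ground plate share a position number but no plants, and all arrays come from 1 flight run and its ground control, so that p-values measure the spread between plant pools within these runs.

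Chloroplasts and mitochondria keep small genomes of their own. The plastid genome encodes core subunits of both photosystems, of the cytochrome b6f complex, of the thylakoid ATP synthase and of the NADH dehydrogenase-like (NDH) complex, the large subunit of Rubisco, ribosomal proteins and 4 subunits of a bacterial-type RNA polymerase. Most of its genes are read in clusters whose long transcripts are cut and spliced afterwards, and light, development and plastid number per cell set how much RNA is present. The mitochondrial genome encodes a few subunits of the respiratory complexes, proteins that attach haem to cytochrome c, some ribosomal proteins and a maturase, besides many open reading frames without known function. In green cells, plastids are many and highly transcribed, while root cells hold non-green plastids. In whole-organ RNA, fewer cells or fewer plastids and less RNA per plastid cannot be told apart.

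The plastid probe sets cover 5 subunits of photosystem I and 12 genes of photosystem II, among them psbN, which is needed for its assembly. They also cover 4 subunits of the cytochrome b6f complex, 6 of the ATP synthase, 11 of the NDH complex and Rubisco's large subunit. Then come 4 RNA polymerase subunits, 21 probe sets of ribosomal proteins (rps12.1 and rps12.2 both stand for rps12) and 12 others. The last group holds accD, clpP, the ycf genes and small open reading frames. It includes ycf6, another name of petN, so that the b6f class as counted here holds the 4 genes named pet in the files. Also in this group, ORF31, ycf9 and orf77 matched no RefSeq name. Class counts and medians may thus leave out subunits that stand under older names. The mitochondrial ones cover 6 subunits of complex I, cox2 of complex IV, 4 proteins of cytochrome c maturation and the ribosomal protein gene rpl16. Besides these stand 2 others (the maturase matR and orfX) and 36 probe sets named as open reading frames. These frames, orf25 among them, matched no RefSeq name, so that genes of known function may be among them. Of all members, 7 plastid and 14 mitochondrial probe sets are of the array's s type and match more than 1 sequence. The plastid ones lie in the inverted repeat, and for several mitochondrial ones a nuclear copy on chromosome 2 has the same sequence, so that their signal is uncertain as to source. The deposited gene symbols of orf106d and orf157 are loci of chromosome 2, though neither probe set is of the s type. The s type thus does not mark every such case.

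Signals are given as the deposited linear MAS5 values, which the authors brought to the same trimmed mean on each array (500.0 to 500.1, trimmed by 2% at either end), and differences are on the log2 scale. A probe set among the lowest 40% by mean log2 signal in an organ is called low-signal. Of the plastid probe sets, 14 were low-signal in hypocotyls, 23 in roots and 0 in leaves and in whole plants. Of the mitochondrial ones, 35 were low-signal in hypocotyls, 39 in roots, 30 in leaves and 10 in whole plants, so that many mitochondrial values lie near the array's background. The 25th percentile of all signals ran from 31.2 to 34.5 on flight leaf arrays and from 32.9 to 68.9 on ground leaf arrays. It ran from 27.0 to 33.8 in hypocotyls, from 35.6 to 47.0 in roots and from 41.5 to 59.5 in whole plants. The values of the flight whole plant array of plate 2 are rounded to 3 digits or fewer (100% of them, against at most 0.273% on each other array). The labelled organs carried their markers: all 13 root marker genes were higher in roots than in leaves (median log2 difference 3.58), and all 11 measured genes of light-harvesting proteins and Rubisco small subunits were lower (median -5.11).

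Among the organs, the plastid transcripts were highest in leaves. The median log2 signal over the 76 plastid probe sets was 9.54 ± 0.23 in flight and 9.36 ± 0.33 in ground hypocotyls, 8.5 ± 0.53 in flight and 8.08 ± 0.71 in ground roots, and 11.71 ± 0.46 in flight and 12.22 ± 1.04 in ground leaves (SD, n = 5 each). Whole plants were at 12.87 ± 0.17 in flight and 13.27 ± 0.16 on the ground (SD, n = 3 each). All 10 leaf arrays lay above all hypocotyl and root arrays. The mitochondrial median was 5.49 ± 0.24 in flight and 5.49 ± 0.15 in ground hypocotyls, 5.49 ± 0.41 in flight and 5.29 ± 0.51 in ground roots, and 5.69 ± 0.28 in flight and 6.41 ± 1.0 in ground leaves. It was 8.02 ± 0.05 in flight and 7.86 ± 0.15 in ground whole plants. The ground leaf array of plate 2 stood apart from the other leaf arrays, at 13.60 for the plastid median (11.16 to 12.72 on the others) and 8.02 for the mitochondrial median (5.47 to 6.64).

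**Figure D1:**
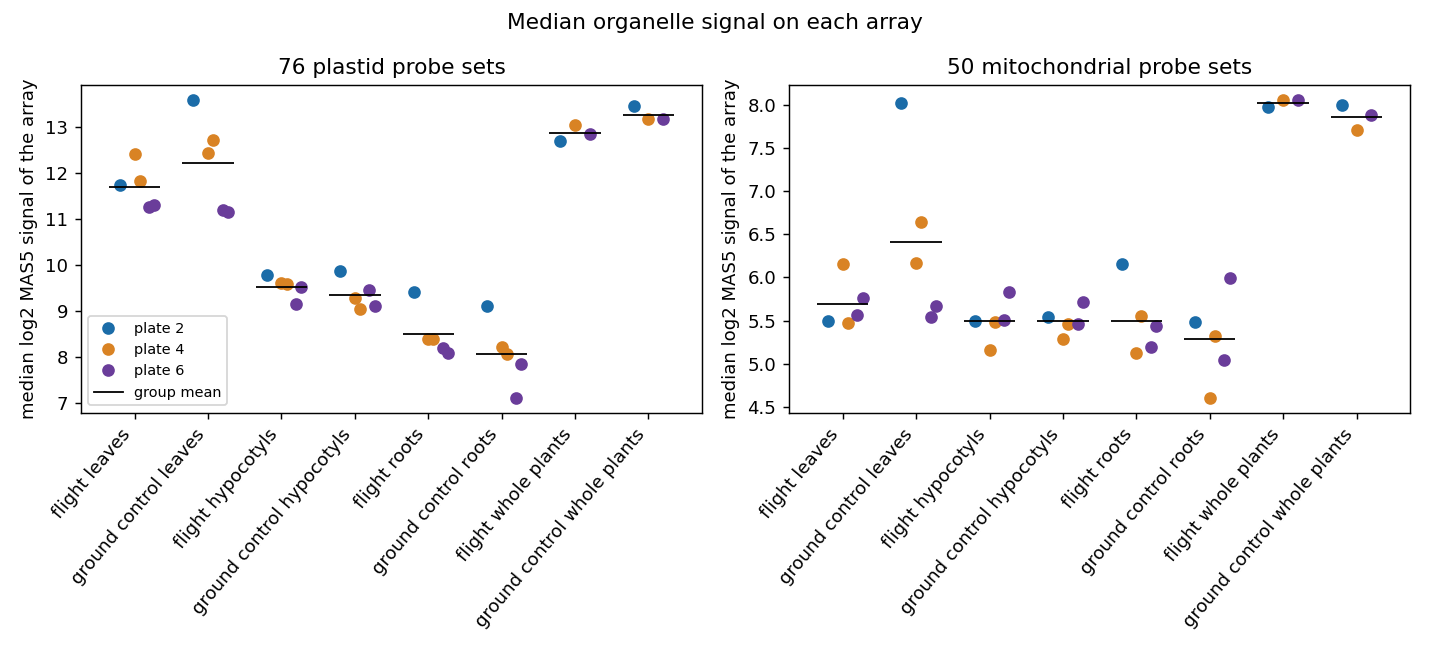
Median log2 signal of the 76 plastid probe sets (left panel) and the 50 mitochondrial probe sets (right panel) on each of the 36 arrays, with flight left of ground control in each organ, points coloured by plate and a bar at the group mean. Plastid medians are high in leaves and whole plants and low in roots, and the ground leaf array of plate 2 lies above the other leaf arrays for both genomes, at 13.60 and 8.02.

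The first comparison set roots against leaves. All 76 plastid probe sets were lower in roots (limma with Benjamini-Hochberg adjustment over all probe sets, adjusted p under 0.05), where 19.6% of all probe sets tested were lower and 53.2% differed in either direction. The median log2 difference was -3.24, with a range from -6.21 to -1.58, against 0.17 over all probe sets. The signals of 64 of them did not overlap between the 10 root and the 10 leaf arrays (10.1% of all probe sets were so in this direction). By class, the NDH complex had the lowest class median (-4.17), followed by the ATP synthase (-3.89), photosystem I (-3.76), photosystem II (-3.33), the RNA polymerase (-3.24), the cytochrome b6f complex (-2.87, or -2.90 with ycf6 added), rbcL (-2.86) and the ribosomal proteins (-2.73). The 12 others had a median of -3.45.

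The 5 members with the largest fall in roots came from photosystems, the NDH complex and the cytochrome b6f complex. The signal of psaC, the iron-sulphur subunit of photosystem I, had a lowest, median and highest value of 1.56, 26.4 and 88.3 in roots and of 639, 2059 and 4950.1 in leaves, a log2 difference of -6.21 ± 0.63 (SE, adjusted p = 3.16e-09). The signal of ycf6, also called petN, a small subunit of the b6f complex, was 3.82, 14 and 50.6 in roots and 244, 552 and 15459.6 in leaves (-6.19 ± 0.72, adjusted p = 3.62e-08). Roots did not reach the lowest leaf array for either gene. The NDH subunit gene ndhJ gave 37.2, 60.5 and 93.3 in roots and 1339.6, 2831 and 15168 in leaves (-5.65 ± 0.34, adjusted p = 7.39e-14). The photosystem II antenna protein gene psbB gave 19.3, 42.7 and 80.3 in roots and 604, 1652 and 9445 in leaves (-5.52 ± 0.46). For psbT, a small photosystem II subunit, roots gave 25.5, 48.5 and 69.9 and leaves 892, 2169.6 and 4291 (-5.49 ± 0.24, adjusted p = 1.23e-16). The root medians of these 5 genes lay between 14 and 60.5, near the 25th percentile of all root signals.

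The 3 smallest falls were those of clpP, atpE and psbM. The gene clpP, a protease subunit that non-green plastids also need, was lower by the least (-1.58 ± 0.21, adjusted p = 4.35e-07), with 2128, 3853 and 7058 in roots and 6905, 12047 and 29038 in leaves, and the ranges overlapped. The ATP synthase subunit gene atpE gave 13822, 17306 and 25178 in roots and 46412, 55788 and 73224 in leaves (-1.67 ± 0.09, adjusted p = 2.38e-14). The small photosystem II subunit gene psbM fell by 1.77 ± 0.26 on the log2 scale. On each root array these 3 genes lay above 2000, far over the array's 25th percentile. The ribosomal protein gene rpl2 gave 3116, 5379 and 9526 in roots and 21044, 26774 and 47359.6 in leaves (-2.25 ± 0.16). The photosystem I core gene psaB gave 1103, 1884 and 5223 in roots and 19643, 24621 and 43287 in leaves (-3.76 ± 0.20, adjusted p = 5.78e-15). For rpoA, a subunit of the plastid RNA polymerase, the difference was -3.23 ± 0.17, for petA, cytochrome f, -2.90 ± 0.18, and for ndhI of the NDH complex -3.45 ± 0.21.

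Mitochondrial transcripts differed less between roots and leaves. Of 50 probe sets, 13 were lower in roots and 1 was higher (19.6% and 33.6% of all probe sets), with a median log2 difference of -0.63 and a range from -3.05 to 0.91, and none was free of overlap. The count of 13 was 7 without the ground leaf array of plate 2 and 7 without the flight root array of plate 4 Rep 1. The 1 that rose was ccb382, also called ccmFN1, which takes part in joining haem to cytochrome c. Its signal was 742, 1552 and 3251 in roots and 485, 810.2 and 1241 in leaves (0.91 ± 0.20, adjusted p = 0.000349). Of complex I, 3 of 6 subunits fell, among them nad6 (-1.31 ± 0.38, adjusted p = 0.00427). The gene cox2, a core subunit of cytochrome c oxidase, gave 17.5, 91.5 and 222 in roots and 107, 159.6 and 453 in leaves (-1.20 ± 0.33, adjusted p = 0.00328), and the ranges overlapped. Of 36 open reading frames 8 fell, with orf100a (-3.05 ± 0.69) and orf170 (-3.01 ± 0.65) lowest. Both frames were low-signal in leaves and in roots, and nad6 and cox2 were low-signal in roots. After the filter of low signals the count of 13 was 4, and in flight arrays alone it was 1.

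**Figure D2:**
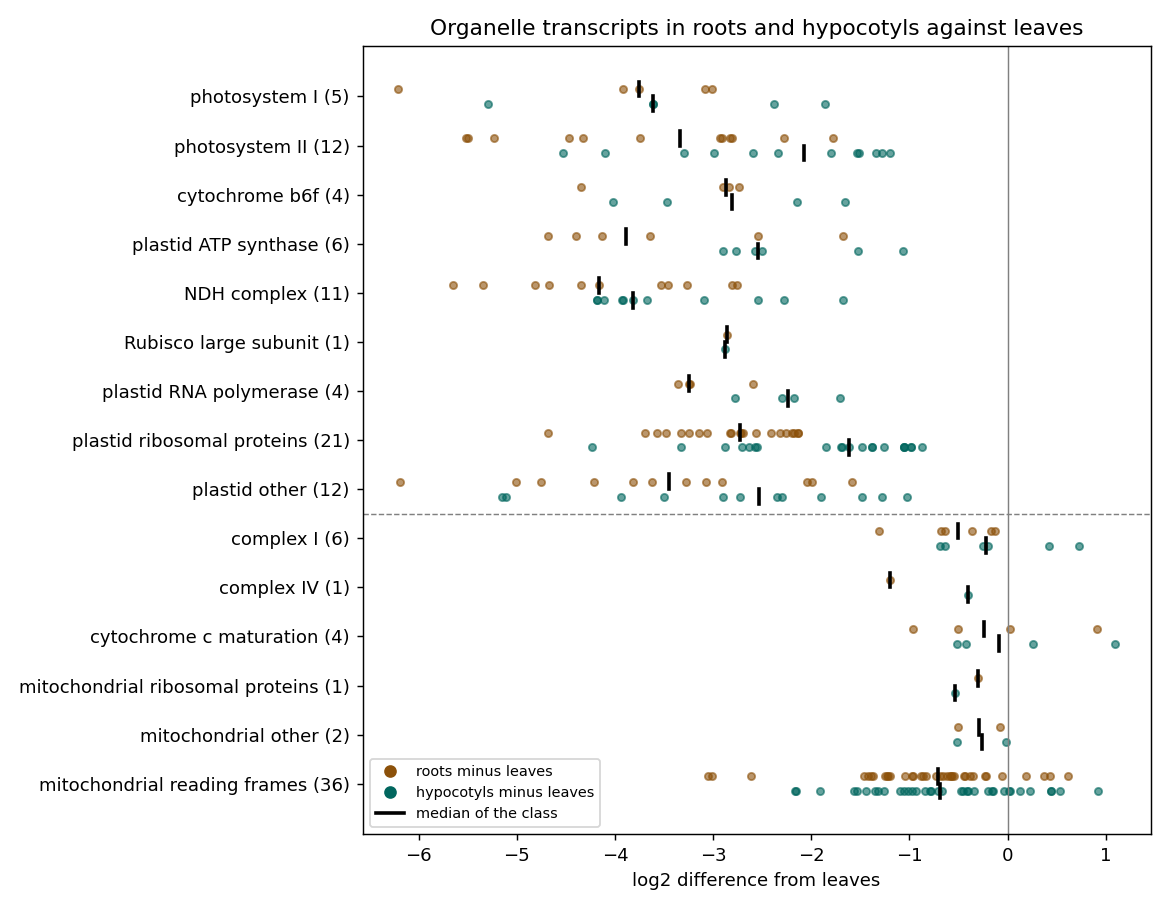
Log2 differences of each probe set between organs by functional class (roots minus leaves in brown, hypocotyls minus leaves in teal), with a black bar at the class median. Every plastid point lies below 0, between -6.21 and -0.87, whereas mitochondrial points lie on both sides, between -3.05 and 1.09.

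Hypocotyls, the stem part between root and leaf rosette, stood between the other organs for most plastid genes. All 76 plastid probe sets were lower in hypocotyls than in leaves (19.1% of all probe sets), with a median of -2.44 and a range from -5.29 to -0.87, and 57 did not overlap (8.53% of all). The NDH complex and photosystem I had class medians of -3.82 and -3.61, and the ribosomal proteins -1.61. The smallest fall was that of the ribosomal protein gene rpl14 (-0.87). The gene psaC gave 3.50, 61.9 and 87.7 in hypocotyls (-5.29 ± 0.63 against leaves), ycf6 3.60, 40.3 and 91.7 (-5.15 ± 0.72) and psbT 39.9, 100.1 and 141 (-4.53 ± 0.24). Among the 5 largest falls were also the reading frame orf77 (-5.11 ± 0.70) and the ribosomal protein gene rps14 (-4.24 ± 0.74). Of the mitochondrial probe sets 8 were lower and 1, ccb382, was higher (28.1% of all probe sets were higher), with a median of -0.46. The count of 8 was 5 without the flight leaf array of plate 4 Rep 1, without the ground leaf array of plate 2 or without the flight hypocotyl array of plate 2. It was 3 after the filter of low signals and 0 in flight arrays alone. The gene ccb382 gave 1075, 1605 and 2800.0 in hypocotyls (1.09 ± 0.20, adjusted p = 5.13e-05), and the complex I subunit nad4 and mitochondrial rpl16 fell by 0.63 ± 0.17 and 0.54 ± 0.21 on the log2 scale.

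Against roots, 51 of 76 plastid probe sets were higher in hypocotyls and 0 were lower (19.7% and 21.7% of all probe sets), with a median of 1.05, and 10 did not overlap (5.63% of all). All 6 ATP synthase subunits, 10 of 12 photosystem II genes and 16 of 21 ribosomal protein probe sets rose. So did 4 of 11 NDH and 2 of 5 photosystem I subunits. The largest rise was that of psbC, a photosystem II antenna protein, with 653, 1532 and 4089 in hypocotyls and 109.9, 215 and 775 in roots (2.65 ± 0.35, adjusted p = 6.18e-07). The genes psbH (1.99 ± 0.34), psaB (1.9 ± 0.20), atpF (1.78 ± 0.33) and ndhJ (1.73 ± 0.34) followed. Rubisco's large subunit gene departed from this order. Its signal was 482, 837 and 1229 in hypocotyls, against 481, 875 and 1985 in roots, a difference of -0.02 ± 0.28 (adjusted p = 0.962), while leaves gave 2800.0, 5880.1 and 19734. The lowest values between hypocotyls and roots were those of petD (-1.28 ± 0.64, adjusted p = 0.117), ndhB, ndhF and psaA, with none past the threshold. These genes were low-signal in both organs. So were ndhE, ndhG and ndhH of the NDH complex, psaC of photosystem I and atpI of the ATP synthase. Of the mitochondrial probe sets 3 rose in hypocotyls over roots: nad9 of complex I (1.1, adjusted p = 0.00233), orf25 (0.83 ± 0.27, adjusted p = 0.0147) and ccb452, a cytochrome c maturation gene (0.76, adjusted p = 0.00744).

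Nuclear genes whose products join these plastid subunits were set beside them. All 28 listed nuclear subunits of the photosystems and the electron transport chain were lower in roots (median -4.72) and in hypocotyls (median -1.87) than in leaves, and all were higher in hypocotyls than in roots (median 2.96). Hypocotyls thus lay 2.96 above roots in the nuclear list, where the plastid-encoded members lay 1.05 above. Of the 76 plastid probe sets, 23 were low-signal in roots and 14 in hypocotyls, and the part of this in the 1.05 was not tested. In roots against leaves, 19.6% of all probe sets were lower and 33.6% higher, beside which the next counts stand. Of 9 sigma factors and organelle RNA polymerases, 6 fell in roots. These were SIG4 (-5.83), SIG6 (-3.00) and SIG2 (-2.29), which direct the plastid polymerase to promoters, SIG1 (-1.09), SIG3 (-1.67) and RPOTp, the nuclear-encoded plastid polymerase (-1.24). SIG5 had a difference of -0.28 (adjusted p = 0.115) and the mitochondrial polymerase RPOTm of 0.02 (adjusted p = 0.933), and RPOTmp, which serves both organelles, of -0.37 (adjusted p = 0.629). All 11 measured proteins that associate with the plastid polymerase fell in roots (median -2.16). Of 26 measured nuclear subunits of the respiratory chain, 19 rose and 1 fell in roots (median 0.34). The median of -0.63 for mitochondrial transcripts covers an unlike set, 50 probe sets of which 36 are open reading frames. Of these 50, 39 were low-signal in roots. Of 8 genes of alternative respiration 2 rose and 2 fell, among them the alternative dehydrogenases NDB2 (2.15) and NDA1 (-3.55).

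Flight was then compared with ground control within each organ. No plastid or mitochondrial probe set passed an adjusted p of 0.05 in leaves, hypocotyls, roots or whole plants, and the smallest adjusted p among them was 0.604, 0.737, 0.399 and 0.966 in this order. Of all probe sets, 0%, 0.0044%, 0% and 0.0044% passed. The study itself counted genes with an unadjusted p under 0.01 and at least 1.9-fold. By this rule 0 members counted in leaves, hypocotyls and whole plants (1.12%, 0.761% and 0.919% of all probe sets), and 1 counted in roots, orf106b (1.32% of all). The values that follow are therefore descriptions of size and spread. The gene rbcL, for example, gave 4483, 8695, 7696, 4073 and 2800.0 in flight leaves and 19734, 7277, 8891, 4040.3 and 3946 in ground leaves on the arrays of plate 2, of plate 4 Rep 1 and 2 and of plate 6 Rep 1 and 2. Its log2 difference was -0.51 ± 0.49 for leaves, 0.03 ± 0.26 for hypocotyls, -0.22 ± 0.41 for roots and 0.10 ± 0.30 for whole plants (SE), and flight and ground overlapped in each.

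In leaves, 68 of 76 plastid and 45 of 50 mitochondrial probe sets were lower in sign in flight (59.4% of all probe sets, with 40.6% higher), with medians of -0.41 and -0.72 against -0.07 over all. At an unadjusted p under 0.05, 1 plastid probe set was higher and 2 were lower, and 6 mitochondrial ones were lower (7.61% of all probe sets counted, 2.26% higher and 5.35% lower). The leaf counts hung on single arrays: the mitochondrial count was 1 without the flight array of plate 2, 3 without the ground array of plate 2 and 15 without the ground array of plate 6 Rep 2, and the plastid count was 0 without the ground array of plate 4 Rep 2 and 9 without the flight array of plate 4 Rep 1. All 11 NDH subunits were lower in sign, with a median of -0.86, and 27 of the 28 nuclear photosystem and electron transport genes were too, with a median of -0.20. The leaf medians were widest apart in plate 2, with 1 flight array and 1 ground array. The plastid median of flight minus ground was -1.70 within plate 2 (72 of 76 lower), -0.29 within plate 4 and 0.09 within plate 6. The mitochondrial median was -2.50, -0.74 and 0.09 in the same plates, and the nuclear photosystem list gave -0.35, -0.01 and -0.29. Without the ground leaf array of plate 2 the medians over all plates were -0.16 for plastid and -0.39 for mitochondrial transcripts, and without the ground array of plate 6 Rep 2 they were -0.63 and -1.09. With plates 4 and 6 only and plate as a block, an alternative chosen after seeing the data, they were -0.14 and -0.41. The ground leaf array of plate 2 was also the leaf array with the highest 25th percentile of all signals (68.9), and the part of this in the medians was not tested. The 13 root markers had a median of -0.64 in flight leaves against ground leaves, with 9 lower in sign and 0 at an unadjusted p under 0.05, and their part was not tested either.

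**Figure D3:**
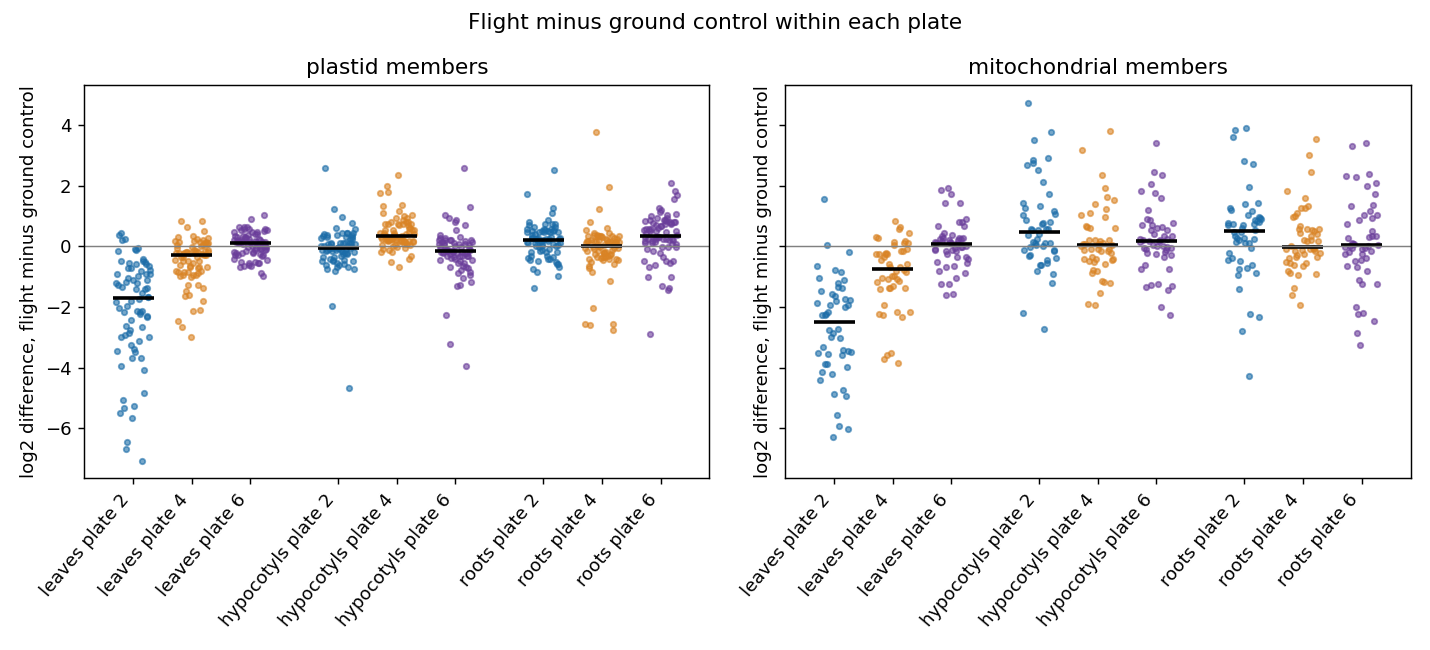
Flight minus ground control log2 difference of each plastid and each mitochondrial probe set within plates 2, 4 and 6 of leaves, hypocotyls and roots, with a bar at the median. In leaves the plastid median is -1.70 in plate 2, -0.29 in plate 4 and 0.09 in plate 6, and in hypocotyls and roots the medians lie between -0.16 and 0.51.

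The leaf plastid genes with the smallest p were psbJ, ndhI, atpB and petD. In this and later sentences the arrays are given as plate 2, plate 4 Rep 1 and 2, and plate 6 Rep 1 and 2. The small photosystem II subunit gene psbJ gave 10043, 10303, 10027, 10384 and 9868 in flight and 8792, 5819, 5590.4, 9460.3 and 8272 on the ground, a difference of 0.45 ± 0.17 (SE, limma unadjusted p = 0.0246, adjusted p = 0.604) without overlap. The gene atpB, the catalytic subunit of the ATP synthase, gave 29775, 28646, 30820.5, 27262 and 24961 in flight and 44494, 34345, 37701, 32463 and 30979 on the ground (-0.34 ± 0.13, adjusted p = 0.605), also without overlap, and it was lower in flight within each plate (-0.58, -0.28 and -0.28). Without overlap were 0.51% of all probe sets in the higher and 0.994% in the lower direction. The gene ndhI gave 13721, 12708, 15603, 10796 and 8337 in flight and 23871, 20086, 19700.0, 14305 and 13597 on the ground (-0.58 ± 0.22, adjusted p = 0.604), and it was lower in each plate too (-0.80, -0.50 and -0.56). The gene petD, subunit IV of the cytochrome b6f complex, gave 99.0, 1026, 44.3, 68.8 and 49.5 in flight and 5027, 1286, 2221, 92.6 and 85.7 on the ground (-2.57 ± 1.35, adjusted p = 0.677). Its difference was -5.67 within plate 2, -2.99 within plate 4 and -0.61 within plate 6.

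Among mitochondrial transcripts of leaves, orf119 gave 24.7, 76.8, 25.9, 47.2 and 18.8 in flight and 438, 112, 127, 46.6 and 60.2 on the ground (-1.73 ± 0.62, limma unadjusted p = 0.0207, adjusted p = 0.604). For orf131 the values were 6.15, 39.5, 27.3, 16.3 and 20.9 in flight and 400.0, 54.5, 64.0, 30.6 and 38.5 on the ground (-1.90 ± 0.74, adjusted p = 0.607). In both the ground array of plate 2 was the highest by far, and the other arrays overlapped. The complex I gene nad6 gave 90.5, 111, 81.5, 108 and 146 in flight and 360.0, 143, 188, 132 and 123 on the ground (-0.72 ± 0.30, adjusted p = 0.638), with -1.99, -0.79 and -0.02 within the plates. The frame orf110b had a difference of -1.98 ± 0.82 (adjusted p = 0.636).

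In hypocotyls, the plastid and mitochondrial medians of flight minus ground were 0.05 and 0.29. Leaving out single arrays gave -0.01 (without the flight array of plate 4 Rep 2) to 0.18 (without that of plate 6 Rep 1) for the plastid median and 0.15 (without the flight array of plate 6 Rep 2) to 0.41 for the mitochondrial one, which was 0.11 with an offset added before log2. Of the probe sets, 44 of 76 and 37 of 50 probe sets were higher in sign (48.9% of all probe sets). At an unadjusted p under 0.05, 3 plastid probe sets were higher and 1 lower, and 2 mitochondrial ones were lower (6.23% of all in either direction, 3.15% higher and 3.08% lower). The RNA polymerase gene rpoC2 gave 591, 829.9, 746, 579 and 1049.7 in flight and 607, 483, 455, 574 and 321 on the ground (0.64 ± 0.23, adjusted p = 0.763). The gene psbN, needed for assembly of photosystem II, gave 665, 593, 750.2, 663 and 973 in flight and 495, 531, 279.5, 683 and 352 on the ground (0.69 ± 0.25, adjusted p = 0.777). The groups overlapped in both. The NDH subunit gene ndhE gave 139.8, 153, 125, 73.6 and 125 in flight and 114, 97.5, 72.3, 55.8 and 27.2 on the ground (0.87 ± 0.38, adjusted p = 0.801). The polymerase gene rpoB was near background on all hypocotyl arrays, with 6.95, 31.9, 40.3, 3.62 and 3.66 in flight and 27.3, 50.3, 52.2, 32.7 and 35.7 on the ground (-1.89 ± 0.72, adjusted p = 0.786).

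The mitochondrial frame orf116 gave 32.9, 26.3, 7.79, 9.06 and 38.6 in flight hypocotyls and 41.1, 61.8, 47.1, 45.4 and 50.2 in ground hypocotyls (-1.37 ± 0.46, adjusted p = 0.756), without overlap (0.664% of all probe sets). For orf135b the values were 34.2, 20.7, 23.8, 42.9 and 61.1 in flight and 78.7, 39.3, 67.2, 88.3 and 83.1 on the ground (-1.02 ± 0.34, adjusted p = 0.737). Both lie near the 25th percentile of the arrays. Mitochondrial rpl16, with signals well above it, gave 1123, 1279, 1168, 843 and 1106 in flight and 755, 816, 491, 1202 and 759 on the ground (0.50 ± 0.23, adjusted p = 0.806), and orf114 had a difference of -0.29 ± 0.16. Within plates the plastid medians of hypocotyls were -0.05, 0.34 and -0.16 and the mitochondrial ones 0.47, 0.03 and 0.16.

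In roots, the medians of flight minus ground were 0.23 for plastid and 0.14 for mitochondrial transcripts, and 0.13 and 0.07 with the offset. Leaving out single arrays gave 0.04 (without the ground array of plate 6 Rep 1) to 0.44 (without the ground array of plate 2) for the plastid median and -0.05 (without the flight array of plate 2) to 0.33 (without that of plate 4 Rep 1) for the mitochondrial median, which thus changed direction. Over all 10 arrays the medians stood with 57 of 76 and 32 of 50 higher in sign (50.4% of all, with 49.6% lower). At an unadjusted p under 0.05, 1 plastid probe set was lower, and 2 mitochondrial ones were higher and 1 was lower (7.2% of all probe sets, 4.37% higher and 2.83% lower). With plate as a fixed block, 10 plastid and 5 mitochondrial probe sets counted (8.2% of all). Of the ribosomal protein probe sets 18 of 21 were higher in sign, with a median of 0.43 and none at an unadjusted p under 0.05. As an example rps4 gave 5165, 5828, 2583, 3671 and 4048 in flight and 4270.1, 3668, 2446, 2028 and 2815 on the ground (0.48 ± 0.28, adjusted p = 0.786). The gene psbM went the other way, with 10213, 8766, 9289, 4275 and 11426 in flight and 12615, 9989, 19657, 9473 and 21084 on the ground (-0.72 ± 0.33, adjusted p = 0.706). The plastid frame orf77 (-1.64 ± 0.68, adjusted p = 0.659) and the NDH gene ndhF (-1.32 ± 0.75) had signals under 100 on all root arrays.

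The mitochondrial frame orf106b gave 30.8, 35.2, 30.6, 14.1 and 17.4 in flight roots and 51.7, 39.3, 40.0, 60.9 and 64.0 in ground roots (-1.06 ± 0.29, limma unadjusted p = 0.00475, adjusted p = 0.399), without overlap (0.594% of all). No member was higher in flight roots without overlap (1.07% of all). The frame orf116, lower in sign in flight hypocotyls, was higher in sign in flight roots, with 64.5, 26.5, 50.8, 40.4 and 55.8 in flight and 46.0, 20.2, 17.8, 4.43 and 5.29 on the ground (1.80 ± 0.62, adjusted p = 0.557). For orf110a the values were 48.1, 38.0, 2.87, 25.7 and 33.7 in flight and 21.6, 3.34, 1.11, 5.01 and 6.34 on the ground (2.16 ± 0.93, adjusted p = 0.679), and orf157 had a difference of 0.74 ± 0.36. Each of the 4 lay under 35.6, the lowest 25th percentile among root arrays, on part of the arrays. Within plates the plastid medians of roots were 0.22, 0.02 and 0.34 and the mitochondrial ones 0.51, -0.02 and 0.03.

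The flight effect of each organ was then set against that of each other organ, in 1 interaction model of all 30 organ arrays in which arrays of 1 plant pool shared a random block. No member passed an adjusted p of 0.05, nor did any other probe set. At an unadjusted p under 0.05, the effect was lower in leaves than in hypocotyls for 5 plastid and 10 mitochondrial probe sets (4.11% of all), and lower in leaves than in roots for 4 and 5 (4.88% of all). These counts hung on single leaf arrays of ground control. Against hypocotyls they were, in either direction, 2 and 3 without that of plate 2 (4.77% of all), 1 and 4 without that of plate 4 Rep 2 (5.28%) and 14 and 13 without that of plate 6 Rep 2 (6.41%). Against roots they were 0 and 0 (6.02%), 0 and 3 (6.66%) and 21 and 10 (7.61%) without the same arrays. Between hypocotyls and roots 0 plastid and 1 mitochondrial probe set were so, in either direction (5.95% of all). This 1 was orf116, with -3.17 ± 1.05 (limma unadjusted p = 0.00588, adjusted p = 0.669). For leaves against hypocotyls the smallest p was that of orf153a (-2.21 ± 0.82, adjusted p = 0.762).

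Plate position was then tested in each organ, with the environment in the model. Within an environment, Rep 1 and Rep 2 of plate 4 came from the same plate, as did those of plate 6. The test took them as separate arrays, so that its p-values rest in part on the spread between plant pools within a plate. No member passed an adjusted p of 0.05 (0.0044%, 0.0132% and 0% of all probe sets did in leaves, hypocotyls and roots). At an unadjusted p under 0.05, 45 of 76 plastid probe sets counted for leaves, 31 for hypocotyls and 49 for roots (59.2%, 40.8% and 64.5%), where 8.12%, 9.91% and 8.72% of all probe sets did. Plastid probe sets were lower in plate 6 than in plate 2, with median log2 differences of -1.39 (leaves), -0.59 (hypocotyls) and -1.06 (roots), against -0.09, -0.02 and -0.03 over all probe sets. Those of plate 4 minus plate 2 were -0.17, -0.37 and -0.92. The mitochondrial counts were 5, 11 and 14 of 50. Each organ and environment had only 1 array of plate 2, and with plates 4 and 6 only, an alternative chosen after seeing the data, the plastid counts were 58 for leaves, 21 for hypocotyls and 16 for roots, where 10.6%, 11.6% and 10.4% of all probe sets counted.

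All 5 photosystem I and 10 of 11 NDH subunits counted in leaves, and 8 of 12 photosystem II genes in hypocotyls. In roots 9 of 12 photosystem II genes and 14 of 21 ribosomal protein probe sets counted. In leaves, petG, a small subunit of the b6f complex, gave 2338, 2529, 2400.4, 1019 and 785 in flight and 2489.5, 1709.8, 2188, 654 and 648 on the ground, 1.66 lower in log2 in plate 6 than in plate 2 and 0.14 lower in plate 4 (limma F-test, adjusted p = 0.160). In both environments the plate 6 arrays lay below all others. The photosystem I gene psaJ gave 7043, 5814, 2872, 1493 and 1271 in flight and 11649.6, 6104, 6992, 1778 and 2261 on the ground (adjusted p = 0.160). In hypocotyls, atpA, a subunit of the ATP synthase, gave 811, 659, 594, 196 and 214 in flight and 479.9, 669, 551, 238 and 194 on the ground (adjusted p = 0.121). In roots, accD, a subunit of the enzyme that begins fatty acid synthesis, gave 1804, 607, 662, 301 and 255 in flight and 1539, 660.2, 510.2, 338 and 438 on the ground (adjusted p = 0.174), with the plate 2 arrays highest. The nuclear photosystem list counted 6 of 28 genes in leaves, 2 for hypocotyls and 14 for roots, and the light-harvesting and Rubisco small subunit list 0, 4 and 9 of 11. In roots the median of the light-harvesting list was -0.87 for plate 4 and 0.01 for plate 6, each minus plate 2, so that these nuclear genes had another plate order than the plastid genes.

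The spread between the leaf arrays was uneven among the plastid genes. The range over the 10 leaf arrays had a median of 2.49 log2 for plastid probe sets, 4.29 for mitochondrial ones and 1.29 for all, and for plastid probe sets it was 1.59 in hypocotyls, 2.18 in roots and 0.79 over the 6 whole plant arrays. The leaf range was over 4 log2 in 15 plastid probe sets (19.7%) and 26 mitochondrial ones (52%), against 22.7% of all probe sets, so that a range of this size was not particular to plastid genes. The 15 were ndhB, ndhF, ndhG, ndhH and psbG of the NDH complex, petD, psbD, rps14, rpoB, rpoC2, accD, ycf2, ycf4, ycf6 and orf77. In all 15 the same 4 arrays were highest, those of ground plate 2, ground plate 4 Rep 1 and Rep 2 and flight plate 4 Rep 1. The order was noticed in these data and is given without a test: 44 of 76 plastid (57.9%) and 15 of 50 mitochondrial probe sets had these 4 arrays above the other 6, and 2.68% of all probe sets did.

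For rpoB the leaf arrays gave 59.5, 539.9, 37.9, 49.7 and 19.6 in flight and 5149, 275, 562, 65.7 and 36.2 on the ground, a range of 8.04 log2. For rps14 they gave 85.3, 1999, 167, 81.5 and 80.3 in flight and 11379, 1683, 3614, 134 and 103 on the ground. These signals run from the array's background up to those of a strongly expressed gene. At the other end, ndhC of the NDH complex had the smallest range, 0.46 log2, with 12418, 13718, 11159.5, 10174 and 10944 in flight and 13979, 12713, 11161, 12670.0 and 13199 on the ground. Subunit genes of 1 complex thus differed widely in spread, since ndhG and ndhH of the same complex spanned 6.25 and 5.91 log2.

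**Figure D4:**
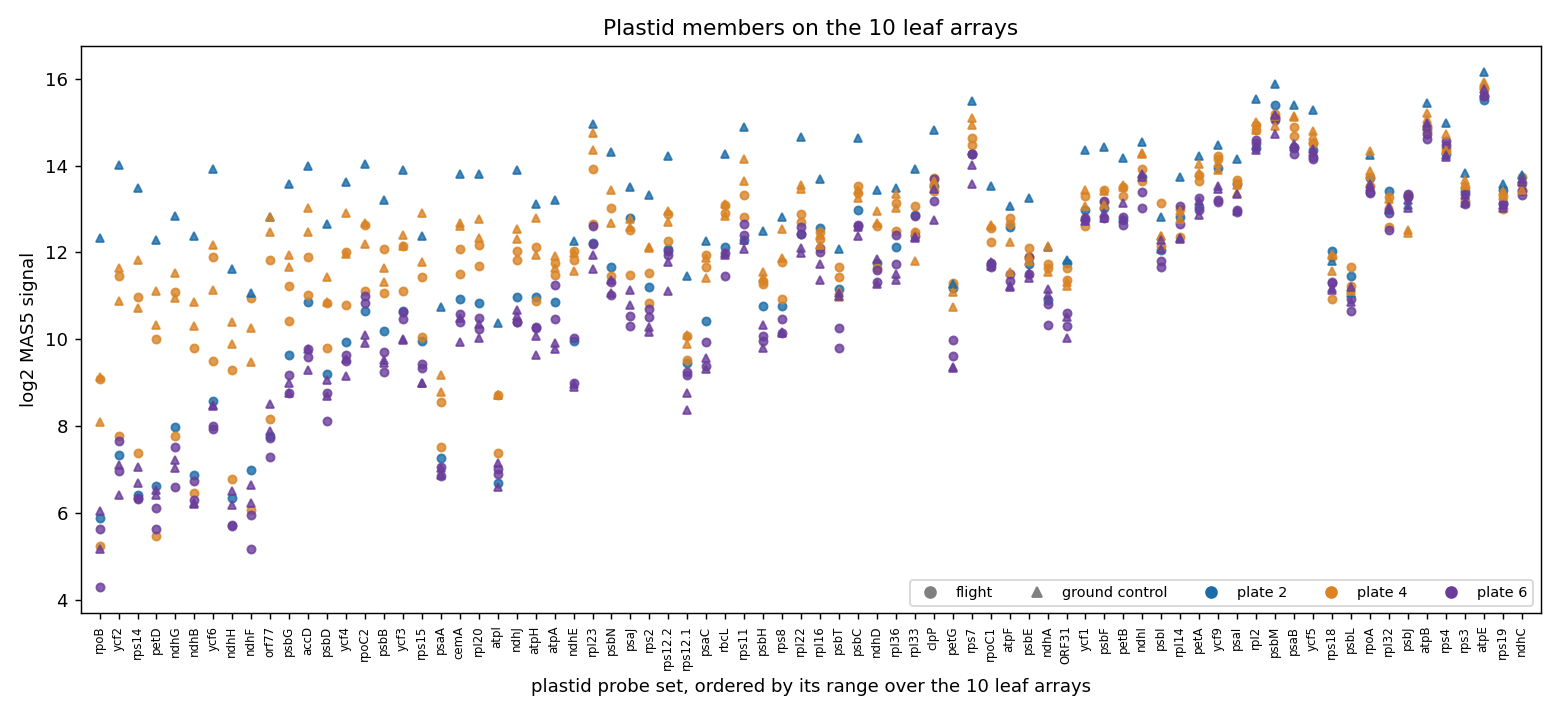
Log2 signal of each of the 76 plastid probe sets on the 10 leaf arrays, ordered by the range over these arrays (circles flight, triangles ground control, colour by plate). Probe sets at the wide end span up to 8.04 log2, with the arrays of ground plate 2, ground plate 4 and flight plate 4 Rep 1 on top, and the narrowest, ndhC, spans 0.46.

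In whole plants, 68 of 76 plastid probe sets were lower in sign in flight (51.1% of all probe sets), with a median of -0.29, and the mitochondrial median was -0.02. At an unadjusted p under 0.05, 6 plastid probe sets were lower and 1 mitochondrial one was higher (4.53% of all probe sets, 1.74% lower and 2.79% higher). Of the plastid probe sets 16 did not overlap, all lower in flight, where 4.92% of all probe sets were so. These were ndhA, ndhB and ndhC of the NDH complex, atpA and atpI of the ATP synthase, petG, psbJ, rpoC2, the ribosomal protein genes rpl22, rpl23, rpl33, rps3, rps18 and rps19, cemA, a protein of the plastid envelope, and ORF31. The NDH gene ndhB gave 2960.0, 2979 and 2361 in flight and 5215, 4196 and 4068 on the ground in plates 2, 4 and 6 (-0.70 ± 0.23, SE, adjusted p = 0.966). The gene ndhC gave 3140.0, 2030.0 and 1937 in flight and 4958, 3594 and 3868 on the ground (-0.83 ± 0.29), and the ribosomal protein gene rpl23 4130.0, 4219.9 and 4647 in flight and 6996, 6235 and 6111 on the ground (-0.57 ± 0.20). All 3 had an adjusted p of 0.966, and all 11 NDH subunits were lower in sign (median -0.34). The plastid frame ORF31 gave 1550.0, 1604 and 1711 in flight and 3204, 1916 and 3154 on the ground (-0.73 ± 0.28). The median over plastid probe sets was -0.60 in plate 2, with 76 of 76 lower, 0.03 in plate 4 and -0.20 in plate 6, each 1 array against 1. Without the flight array of plate 2 the median over the remaining arrays was -0.16. The 6 plastid probe sets at an unadjusted p under 0.05 were 0 without the ground array of plate 2, 1 without that of plate 6, and 2 and 3 without the flight array of plate 2 and of plate 4. The nuclear photosystem list was lower in sign in 25 of 28 genes (median -0.22).

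Mitochondrial genes of whole plants with the smallest p were the frames orf184, with 132, 162 and 169 in flight and 107, 67.5 and 60.9 on the ground (1.01 ± 0.30, adjusted p = 0.966), orf127 (0.52 ± 0.22), orf149 (0.54 ± 0.27) and nad3 of complex I. The last gave 432, 594 and 682 in flight and 748, 968 and 721 on the ground (-0.53 ± 0.27). The groups did not overlap in these 4, where 4.96% of all probe sets were so in the higher and 4.92% in the lower direction.

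Among the nuclear lists of respiration and organelle transcription, AOX1C, an alternative oxidase gene, met the study's thresholds, in leaves and in whole plants and with opposite signs. Its signal averaged 2.1 ± 0.77 in flight and 9.97 ± 9.19 in ground leaves (SD, n = 5 each, log2 difference -1.93 ± 0.50, limma adjusted p = 0.434), and 12.9 ± 3.19 in flight and 2.74 ± 1.21 in ground whole plants (n = 3 each, 2.33 ± 0.46, limma adjusted p = 0.906). These means lie under the 25th percentile of all signals in their arrays. No sigma factor, organelle polymerase or polymerase-associated gene had an unadjusted p under 0.05 in any of the 4 comparisons.

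Whole plants and organs were labelled with the same kits but differed in cultivar and in plants, so that what follows cannot be told apart from these differences and is given without a test. On all 6 whole plant arrays, above each of the 30 organ arrays, were 17 plastid (22.4%) and 23 mitochondrial probe sets (46%), against 8.77% of all probe sets. The plastid ones were psaA, psaC, psbB, psbD, psbF, petD, petG, atpA, atpF, atpH, atpI, ndhA, ndhE, ndhH, rbcL and the ribosomal protein genes rps12.1 and rpl36, and the mitochondrial ones included nad4, nad4L, nad6 and nad9 of complex I, cox2, ccb206, ccb452 and matR. Of all members 1 plastid probe set, psbM, was below every organ array (8.98% of all). The median of whole plants minus leaves was 1.06 for plastid and 2.27 for mitochondrial transcripts, against 0.06 over all probe sets. The 28 nuclear photosystem genes were all lower in whole plants than in leaves, with a median of -1.54, and 16 of 26 nuclear respiratory genes were below all organ arrays.

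The photosystem I core gene psaA gave 12900.0, 19282 and 16342 in flight and 17405, 20489.8 and 15881 in ground whole plants, against a lowest, median and highest value of 115, 169 and 1717 in leaves (log2 difference of means 6.06). The gene psbM gave 1100.0, 1034 and 1339 in flight and 1967, 1311 and 2725 in ground whole plants, against 27176, 35773 and 60134 in leaves (-4.63). Both encode thylakoid proteins, and the sample types differed in opposite directions. The gene rbcL gave 26700.0, 46732 and 45013 in flight and 33908, 39683 and 33633 in ground whole plants, against 2800.0, 5880.1 and 19734 in leaves (2.60). Of the mitochondrial genes, the maturase matR gave 1700.0, 944 and 1714 in flight and 1204, 1046 and 901 in ground whole plants, against signals from 1.74 to 121 in leaves (7.89). The complex I gene nad4L gave 4470.0, 4430.3 and 5647 in flight and 5070.0, 4688 and 3811 in ground whole plants, against 63.5 to 246 in leaves (5.46). For cox2 the difference was 3.00, and for ccb382, the gene that was higher in roots and hypocotyls than in leaves, it was 0.04.

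Genes next to each other in the plastid genome often had unlike values of this difference. The genes psaA, psaB and rps14, which are read as 1 cluster, had values of whole plants minus leaves of 6.06, 0.34 and 4.59. The pair psbD and psbC, also read together, had 4.54 and 1.35, and rpoB and rpoC1 had 5.15 and 0.57. The pairs atpE and atpB (-1.15 and -0.48) and psbF and psbE (1.86 and 1.31) lay closer. Over 58 neighbouring pairs in RefSeq order, taken by position whether or not they are read together, the median difference within a pair was 1.42 log2. Of these, 25 pairs differed by over 2, and the values of neighbours had Pearson's r of -0.07. Pairs that are not neighbours were not compared. The mean log2 level of the 76 plastid probe sets in leaves had Pearson's r of 0.91 with that in roots and of 0.32 with that in whole plants (Spearman's rho 0.93 and 0.29). These are descriptions across probe sets of the same arrays, which share probe sequence and are not independent.

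**Figure D5:**
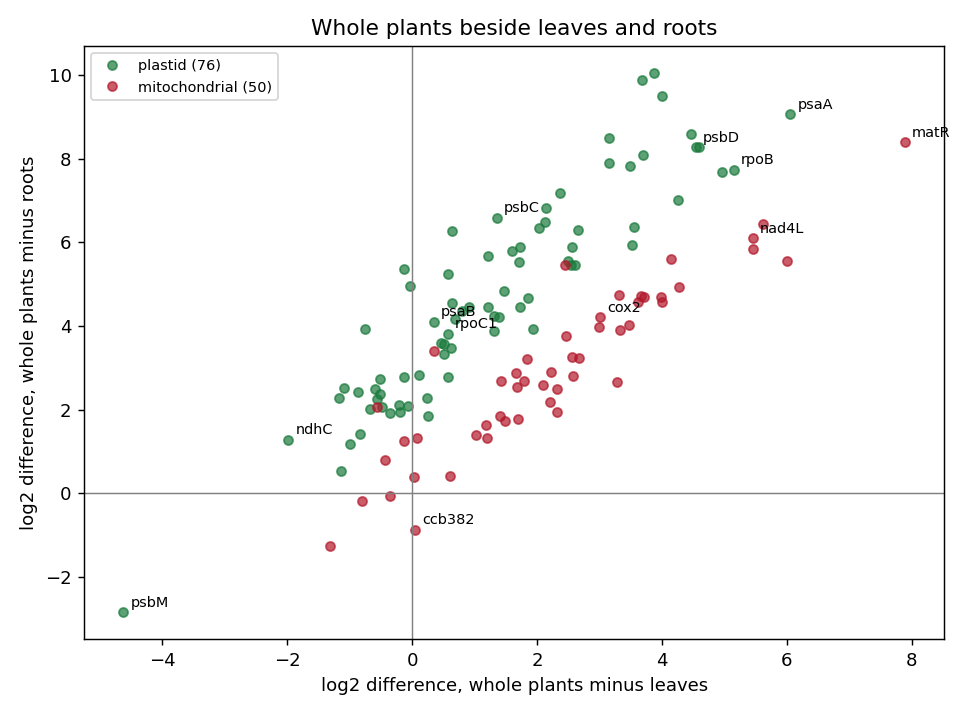
Whole plants minus leaves (x axis, log2) against whole plants minus roots (y axis, log2) for each plastid (green) and mitochondrial (red) probe set, as differences of mean log2 signals over 6 whole plant, 10 leaf and 10 root arrays. The points psaA and matR lie far to the right, at 6.06 and 7.89, and psbM lies at -4.63, apart from all others.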

How the data were processed

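Signals of 36 Affymetrix ATH1 arrays were used. The authors deposited signal intensity on a linear scale, made with MAS5 in Affymetrix Expression Console (versions not given in the sources used here). Tables that the authors deposited with their own p-values, q-values and log2 fold changes were not used for any value, apart from gene names. Of the 126 gene symbol cells, 123 hold no name, so names came from the public identifier column, and RefSeq genes (TAIR10.1) held 86 of them (72 plastid, 14 mitochondrial). The name psbG is an older name for a gene of the NDH complex.

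From the signals, log2 values were computed without offset or filter. Of 22810 probe sets, 64 controls were left out. Comparisons used limma 3.58.1 in R 4.3.3 (lmFit, eBayes) with Benjamini-Hochberg adjustment over 22746 probe sets, an adjusted p under 0.05 as threshold, and across organs a random block for arrays of the same plant pool (duplicateCorrelation 0.0306). The script was tested on simulated data. The number of arrays limits the precision. No arrays appeared to be duplicates (highest correlation 0.929).

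The members, classes and gene lists were chosen with earlier results of these data known. Genes named are, per flight comparison, the 4 plastid and 4 mitochondrial ones with the smallest p, per organ contrast the 5 highest and 5 lowest, and per class the probe set with the highest mean; the examples of plate position, of leaf spread and of whole plants against organs were chosen after their values were seen. Alternatives were other scalings, an offset, a filter of low signals, other variance settings, plate and replicate blocks, the methods' t-test and leaving out arrays.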

Additional observations from a re-analysis of the deposited data

Results flagged for a closer look

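In 8 of 144 groups of 5 arrays checked, the highest or lowest array stood apart from the other 4 by Dixon's ratio, the gap to the nearest array divided by the group's whole range, and chance marks about 1 in 20 groups. The plastid median of flight roots was highest in plate 2, at 9.43 log2 against 8.40 for the next array (ratio 0.770). Of flight leaves, petD was highest in plate 4 Rep 1 (0.744). The ground leaf array of plate 2 was highest for orf131 (0.713) and orf149 (0.785). In flight hypocotyls ndhE was lowest in plate 6 Rep 1 (0.724), and in ground hypocotyls psaB was highest in plate 2 (0.767). In flight roots psbM was lowest in plate 6 Rep 1 (0.730) and orf110a in plate 4 Rep 2 (0.777).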

How the results depend on the processing

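No member passed an adjusted p of 0.05 for flight against ground control under any alternative run, the offset moved the leaf mitochondrial median to -0.47 from -0.72, and all 76 plastid probe sets remained lower in roots and in hypocotyls than in leaves under every scaling. The median of all probe sets moved most for hypocotyls minus leaves, with 0.06 as given and -0.08 after centring on the nuclear median. For hypocotyls minus roots it was -0.04 as given and 0.08 after quantile normalization, where 8 mitochondrial probe sets instead of 3 were higher in hypocotyls (5 with trend and robust variance). For counts at an adjusted p under these alternatives, here and above, the share of all probe sets was not counted. Their changes therefore cannot be set against a change of that share. Other mitochondrial counts changed as follows. Lower in roots than leaves were 4 after the filter of low signals and 1 in flight arrays alone, against 13. Lower in hypocotyls than leaves were 3 and 0, against 8, and higher were 2 instead of 1 with the offset, the filter, trend and robust variance or flight arrays alone. The mitochondrial median of hypocotyls minus leaves was 0.0585 in flight arrays alone and -1.02 in ground arrays alone, and that of roots minus leaves -1.16 in ground arrays alone. In ground arrays alone 29 plastid probe sets, against 51, were higher in hypocotyls than roots. Roots minus leaves changed sign for orf167 (-0.0400 with quantile normalization, -0.0447 with the offset) and, in ground arrays alone, for orf116 (-0.21) and orf107e (-0.33). Within plates, the leaf mitochondrial median was 0.0902 in plate 6, and in hypocotyls of plate 4 the plastid median was 0.34, the mitochondrial median 0.0265 and orf114 0.0828. Leaving out single arrays gave 7 to 16 mitochondrial probe sets lower in roots than leaves, 5 to 10 lower and 1 to 2 higher in hypocotyls than leaves, 3 to 5 higher in hypocotyls than roots, -0.23 to 0.43 for orf167, and 0 to 1 members called for plate in leaves (1 without the flight array of plate 2). The methods' t-test called 0 members after Benjamini-Hochberg adjustment in each comparison, and at the study's thresholds it also called orf106b in roots and no other member. With plates 4 and 6 only, chosen after seeing the data, 1 member was called for plate in leaves and 1 in hypocotyls. How many of all probe sets were called for plate in these runs was not counted, so that these calls have no background beside them. Of the other values, 164 single-gene values or unadjusted counts moved and 2370 did not, the cause of which was not tested.

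Arrays with the same plate and Rep number in flight and ground control had low correlations of their deviations over all probe sets (-0.09 to 0.04 for leaves, -0.01 to 0.01 for hypocotyls, -0.01 to 0.03 for roots and 0.04 to 0.11 for whole plants), below the limit of 0.1 for pairing in all but 1 pair. Over the members alone they ran higher in part (-0.24 to 0.55 for leaves, -0.05 to 0.15 for hypocotyls, -0.02 to 0.30 for roots and -0.12 to 0.26 for whole plants), and 3 whole plant arrays correlated best with their own number, 2 root arrays and 0 of the others. The numbers were not taken as pairs. With the replicate block, 0 members were called in each comparison, the leaf medians were -0.41 and -0.72 as before, and at an unadjusted p under 0.05 the plastid counts were 6 for leaves, 3 for hypocotyls, 9 for roots and 2 for whole plants, where 7.75%, 6.56%, 7.49% and 5.85% of all probe sets counted. Low-signal probe sets, chiefly mitochondrial, limit what these arrays can show.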
